A study of Mus musculus with 21 samples.

Results

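The genes described here are those of cholesterol synthesis and of its control by SREBP2, the transcription factor that switches the pathway on when membranes run short of sterol. They were followed in mouse liver after SPC3372, a locked nucleic acid oligonucleotide against microRNA-122, the most abundant microRNA of hepatocytes. The list holds 28 genes by name, and 26 of them had a probe set annotated with that symbol alone, out of 18193 genes in all. Acat2 and Soat2 were not analysed here. The mice were female and of the NMRI stock. The drug groups received SPC3372 at 25 mg per kg on day 2 and were killed on day 3, 9 or 23. The saline groups received the vehicle on day 2 and were killed on the same days. Each of the 6 groups held 3 mice, and the labels give no age. Mouse numbers recur between days, and those animals were taken as different mice. The measurements were Affymetrix array levels in log2 units of whole liver RNA, so a lower level may mean less RNA per cell or fewer cells, and these cannot be told apart. Days 3 and 9 were hybridised in the array set that the labels call p0617, and both groups of day 23 in p0621. The SPC3372 mice of day 23 were hybridised in p0617 as well.

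The pathway starts from acetyl-CoA, which Acat2 and Hmgcs1 condense towards mevalonate. Mvk, Pmvk, Mvd, Idi1 and Fdps turn mevalonate into farnesyl diphosphate, from which Ggps1 branches off to the lipid anchors of small GTPases and Fdft1 commits carbon to squalene. Sqle and Lss form lanosterol, and Cyp51, Tm7sf2, Msmo1, Nsdhl, Hsd17b7, Ebp, Sc5d and Dhcr7 trim it to cholesterol. SREBP2, the product of Srebf2, is held in the endoplasmic reticulum with its escort Scap by the Insig proteins while sterol is plentiful, and is released when sterol falls. In the liver the pathway feeds bile acids and lipoproteins, and its genes are known to follow feeding and the time of day. Stard4 carries sterol through the cytosol, Npc1 and Npc2 export it from lysosomes, Npc1l1 takes it up and Soat2 esterifies it.

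The sequences before the start sites of these genes are shown first, as a description. The genes were listed as SREBP2-controlled, and the part of these sequences in their levels was not tested. The 250 bases before each annotated start were taken from RefSeq, build GRCm38.p6, and 28 such windows were found for 22 of the listed genes. Fdps, Fdft1, Sqle, Stard4, Npc1 and Soat2 had no window. The motifs searched, on both strands, were the sterol regulatory element core TCACNCCAC, the NF-Y box CCAAT and the Sp1 box GGGCGG. Hmgcs1, Mvd, Lss, Ggps1 and Insig1 are shown because the results turn on them or because they differ in these motifs. Capitals mark the motifs, read on either strand.
Hmgcs1, chr13:119690101-119690350, plus strand: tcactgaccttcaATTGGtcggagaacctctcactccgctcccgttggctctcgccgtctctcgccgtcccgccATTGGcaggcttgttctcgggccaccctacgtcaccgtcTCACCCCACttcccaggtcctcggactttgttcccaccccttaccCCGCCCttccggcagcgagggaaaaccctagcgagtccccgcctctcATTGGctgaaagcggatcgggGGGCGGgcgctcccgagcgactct
Mvd, chr8:122443423-122443672, minus strand: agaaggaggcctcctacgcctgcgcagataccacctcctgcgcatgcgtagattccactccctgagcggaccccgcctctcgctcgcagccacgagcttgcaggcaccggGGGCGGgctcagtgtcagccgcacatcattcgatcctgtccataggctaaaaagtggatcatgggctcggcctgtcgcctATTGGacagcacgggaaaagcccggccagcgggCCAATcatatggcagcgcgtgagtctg
Lss, chr10:76531355-76531604, plus strand: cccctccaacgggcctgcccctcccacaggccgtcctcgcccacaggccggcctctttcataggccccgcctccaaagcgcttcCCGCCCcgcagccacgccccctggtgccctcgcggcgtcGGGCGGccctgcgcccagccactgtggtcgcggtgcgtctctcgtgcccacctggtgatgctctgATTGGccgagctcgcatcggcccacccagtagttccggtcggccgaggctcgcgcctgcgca
Ggps1, chr13:14063489-14063738, minus strand: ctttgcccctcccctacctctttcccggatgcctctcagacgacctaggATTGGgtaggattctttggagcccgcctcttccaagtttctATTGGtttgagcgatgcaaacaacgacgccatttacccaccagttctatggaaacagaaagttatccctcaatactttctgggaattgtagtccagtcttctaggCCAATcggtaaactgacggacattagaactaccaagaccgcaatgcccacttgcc
Insig1, chr5:28071162-28071411, plus strand: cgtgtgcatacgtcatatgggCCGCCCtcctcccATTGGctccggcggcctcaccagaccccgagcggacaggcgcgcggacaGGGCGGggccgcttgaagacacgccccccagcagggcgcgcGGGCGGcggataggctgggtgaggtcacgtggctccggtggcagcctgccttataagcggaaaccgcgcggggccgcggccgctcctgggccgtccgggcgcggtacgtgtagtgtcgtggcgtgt
CCAAT was found in 20 of the 28 windows (71.4%), against 33.8% of 32851 windows of all genes. GGGCGG was found in 21 of the 28 windows, which is 75%, against 32.7% of all windows. The sterol element core was found in 1 window (3.57%), that of Hmgcs1, against 1.05% of all windows. Ggps1, Pmvk and Npc1l1 had CCAAT and no GGGCGG in their windows. A match is a description of letters, and other spellings of these elements were not searched.

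The 18 measured enzymes varied more between mice of a group than most genes did. Except for Ggps1 and Ebp, their residual SDs lay between the 95.7 and the 99.6 percentile of all genes, against the 42.6 percentile for Ggps1 and the 68.7 percentile for Ebp. Without SPC3372 replicate 3 of day 9, a mouse described below, the same 16 enzymes lay between the 74.5 and the 97.9 percentile. Npc1l1 was dim, with a mean level of 4.62 against a median of 4.79 over all probe sets. Every p-value below comes from limma, adjusted by Benjamini-Hochberg over all 18193 genes, and a gene is said to have passed below an adjusted p of 0.05. Differences are SPC3372 minus saline in log2 units.

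**Figure D1:**
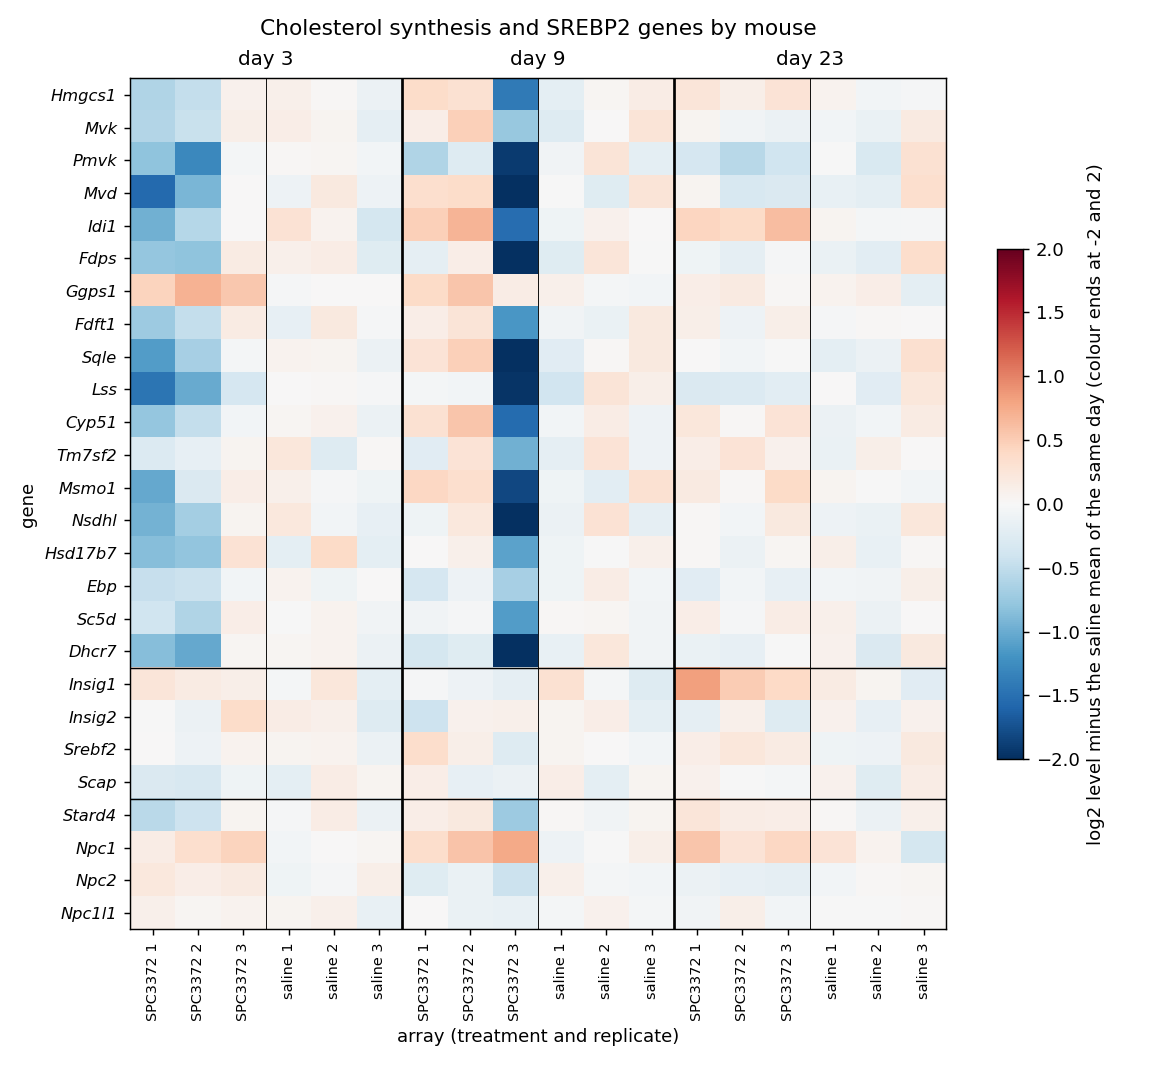
Colour gives the log2 level of each of the 26 measured genes on each of the 18 arrays minus the mean of the 3 saline mice of the same day, with SPC3372 mice left of saline mice and colours ending at -2 and 2. Lines part the 18 enzymes, the 4 sensing genes and the 4 transport genes. SPC3372 replicate 3 of day 9 is the darkest column among the enzymes, and SPC3372 replicates 1 and 2 of day 3 are paler blue.

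On day 3, Ggps1, the enzyme that makes geranylgeranyl diphosphate, rose, and most other enzymes of the pathway had lower levels in SPC3372 livers without passing the test. Ggps1 had levels of 7.26, 7.51 and 7.36 in SPC3372 mice, against 6.79, 6.83 and 6.83 in saline mice. All 3 SPC3372 mice lay above all 3 saline mice, a difference of 0.56 ± 0.11 (SE), or 1.47-fold (limma adjusted p = 0.00583). It was the only measured gene of the list to pass, while 4.51% of all genes passed on that day. None of the 26 passed as lower, and at an unadjusted p under 0.05 there were 2 higher and 3 lower, while 18.3% of all genes were under it. The other 3 probe sets of Ggps1 differed by 0.25, 0.40 and -0.00 and did not pass, and the mean of the 4 gave 0.30 (limma adjusted p = 0.137). Probe sets of its kind of identifier, ending in s_at, may also match related transcripts. Those used for Lss and Mvd are of that kind too.

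Lss, which closes squalene epoxide into lanosterol, had levels of 7.81, 8.26 and 8.94 in SPC3372 mice, against 9.28, 9.29 and 9.25 in saline mice of day 3. The SPC3372 mice lay below every saline mouse, and the difference of -0.93 ± 0.37 did not pass (limma adjusted p = 0.183). Because the 6 groups share an estimate of the spread, that error includes an SPC3372 mouse of day 9 that stood far apart. With that mouse left out of the fit, a choice made after the data were seen, Lss passed as lower (limma adjusted p = 0.0187). In a fit of the day's own 6 arrays, which also leaves that mouse out, Lss did not pass (limma adjusted p = 0.106). Of 15 alternatives, Lss passed in 1. Its other probe sets differed by -0.73 and -0.14 and did not pass.

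Mvd, which decarboxylates mevalonate diphosphate, had levels of 7.16, 7.81 and 8.73 in SPC3372 mice, against 8.63, 8.92 and 8.62 in saline mice. Pmvk, the kinase before it, had 9.09, 8.60 and 9.84 in SPC3372 mice, against 9.91, 9.93 and 9.84 in saline mice. Dhcr7, the reductase of the last step, had 8.89, 8.72 and 9.79 in SPC3372 mice, against 9.79, 9.82 and 9.64 in saline mice. In each of these genes SPC3372 replicates 1 and 2 were below the saline mice and replicate 3 was among them. The differences of -0.82, -0.71 and -0.62 did not pass (limma adjusted p = 0.416, 0.260 and 0.429). The other probe set of Mvd differed by -0.46.

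Of the 18 enzymes, 17 had a negative difference on day 3, and the median difference of the 18 was -0.444, against 0.0118 over all genes. Some other probe sets of the 17 were positive, those of Sc5d (0.19), Fdft1 (0.28 and 0.23) and Fdps (0.08). The ones of Fdft1 and Fdps were dim, with mean levels of 5.28, 4.88 and 2.91. The median deviation of the enzymes from the saline mean was -0.789, -0.581 and 0.0615 in the SPC3372 mice, against 0.0553, 0.0517 and -0.106 in the saline mice. In SPC3372 replicates 1 and 2, 17 of 18 enzymes lay below the saline mean, and Ggps1 was the exception in both. In replicate 3, 5 of 18 did. The median difference was -0.260 without SPC3372 replicate 1, -0.357 without replicate 2 and -0.711 without replicate 3.

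On day 3, 3 members lay wholly above and 1 wholly below the saline mice, which is 4 of 26, while 21.5% of all genes had groups without overlap. The 3 above were Ggps1, Npc1 and Npc2. Of the sensors, Insig1 differed by 0.18, Insig2 by 0.08, Srebf2 by -0.01 and Scap by -0.23, and none passed.

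**Figure D2:**
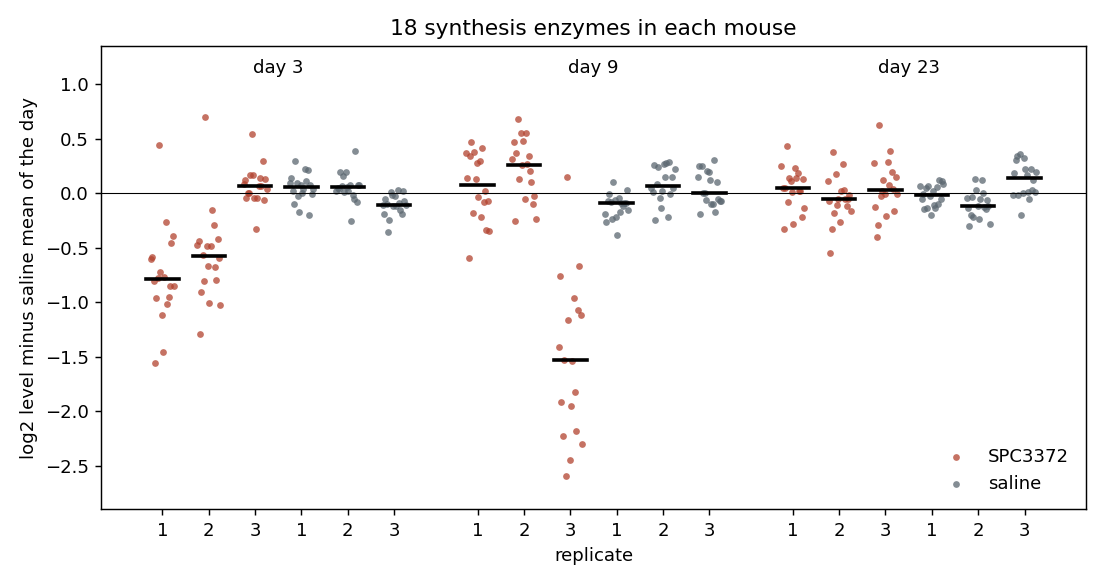
Each point is one of the 18 enzymes in a mouse, as its log2 level minus the saline mean of the same day, and each bar is the median of the 18 in that mouse. The SPC3372 medians are -0.789, -0.581 and 0.0615 on day 3 and 0.0729, 0.261 and -1.54 on day 9, and all medians of day 23 lie near 0.

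On day 9, Npc1, which moves cholesterol out of lysosomes, was higher in SPC3372 livers, and a single SPC3372 mouse had much lower levels of nearly the whole synthesis pathway. Npc1 had levels of 9.62, 9.84 and 10.03 in SPC3372 mice, against 9.17, 9.25 and 9.38 in saline mice. All SPC3372 mice lay above all saline mice, by 0.56 ± 0.14 (SE) or 1.48-fold (limma adjusted p = 0.0375). It was the only one of the 26 genes to pass, while 2.81% of all genes passed on day 9. None passed as lower. At an unadjusted p under 0.05 there were 2 members higher and 4 lower, while 16.8% of all genes were under it. The Npc1 call was close to the threshold. It ended in a fit of the day's own 6 arrays (limma adjusted p = 0.0767) and when any of 5 of the 6 arrays was left out (adjusted p from 0.0690 to 0.163), with the difference between 0.47 and 0.62 in those 5 fits.

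SPC3372 replicate 3 of day 9 stood apart from its group in the enzymes. Sqle, the epoxidase of squalene, had levels of 9.90, 10.10 and 7.17 in SPC3372 mice, against 9.40, 9.64 and 9.82 in saline mice. Fdps, which makes farnesyl diphosphate, had 11.60, 11.91 and 9.19 in SPC3372 mice, against 11.55, 12.03 and 11.79 in saline mice. Nsdhl, a sterol dehydrogenase, had 10.80, 11.10 and 8.70 in SPC3372 mice, against 10.77, 11.18 and 10.72 in saline mice. In all of these the third SPC3372 mouse was lowest of the 6 and the other SPC3372 mice lay within or above the range of the saline mice.

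Set against the mean of replicates 1 and 2, 15 of the 18 enzymes were lower by at least 1 log2 unit in replicate 3, while 0.418% of all genes were. The enzymes' median difference from those mice was -1.83, against 0.00904 over all genes. Of the 20 genes lowest in this mouse among 18193, 10 were enzymes of the list: Sqle (-2.82), Mvd (-2.58), Fdps (-2.56), Nsdhl (-2.25), Msmo1 (-2.20), Idi1 (-2.10), Dhcr7 (-2.01), Cyp51 (-1.97), Lss (-1.91) and Hmgcs1 (-1.75). Scd1 and Rdh11, which are also SREBP targets, were among the 20 as well. The rest were 9130409I23Rik, Dio1, Cyp26a1, Tpmt, Xaf1, Zzef1, Aldoc and Cyp2r1. Of these, 9130409I23Rik, Dio1, Cyp26a1, Tpmt and Xaf1 were also among the 20 lowest in some other mouse, taken against its own group. The enzymes that were not lower by 1 unit were Tm7sf2 (-0.99), Ebp (-0.44) and Ggps1 (-0.32).

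None of the genes of sensing and transport was lower by 1 unit in the same mouse. Stard4 and Srebf2 were lower by more than the enzymes Ebp and Ggps1 were. Srebf2 differed by -0.50 and Stard4 by -0.88 from the mean of replicates 1 and 2, and Insig1 (-0.11), Scap (-0.10), Insig2 (0.27) and Npc1 (0.30) by less. No other array of the 18 had more than 1 enzyme lower by 1 unit than the mean of its group's other mice. The third mouse had a difference of 1.16 between the 3′ and 5′ β-actin control probe sets, against 1.13 and 1.12 in the other SPC3372 mice of that day, and an array median of 4.78, against 4.77 and 4.75.

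With this mouse included, 17 of 18 enzymes had a negative difference on day 9, with a median of -0.363, against -0.0198 over all genes. Without it, 6 were negative and 12 positive, with a median of 0.127. With it included, other probe sets of Sc5d differed by 0.13 and 0.51, and dim ones of Hmgcs1 and Msmo1 by 0.26 and 0.09. The median deviation of the enzymes from the saline mean was 0.0729, 0.261 and -1.54 in the SPC3372 mice, against -0.0906, 0.0626 and 0.000508 in the saline mice.

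Pmvk, Dhcr7 and Ebp lay lower in all 3 SPC3372 mice of day 9. Pmvk had 8.85, 9.20 and 7.54 in SPC3372 mice, against 9.38, 9.71 and 9.26 in saline mice. Its difference of -0.92 did not pass (limma adjusted p = 0.153). Dhcr7 had 9.24, 9.35 and 7.29 in SPC3372 mice, against 9.44, 9.82 and 9.52 in saline mice (difference -0.96, limma adjusted p = 0.204). Ebp, a sterol isomerase, had 11.61, 11.85 and 11.29 in SPC3372 mice, against 11.86, 12.09 and 11.90 in saline mice (difference -0.37, limma adjusted p = 0.143). The groups of these genes did not overlap. Without replicate 3, Pmvk differed by -0.43, Dhcr7 by -0.29 and Ebp by -0.22. In all, 2 members lay wholly above and 4 wholly below the saline mice, while 21.6% of all genes had groups without overlap on day 9.

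Ggps1 kept the direction it had on day 3. Its levels on day 9 were 7.26, 7.43 and 7.02 in SPC3372 mice, against 6.98, 6.83 and 6.82 in saline mice, a difference of 0.36 that did not pass (limma adjusted p = 0.0881). On day 23 they were 6.67, 6.72 and 6.56 in SPC3372 mice, against 6.61, 6.67 and 6.34 in saline mice, and these overlapped (difference 0.11).

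**Figure D3:**
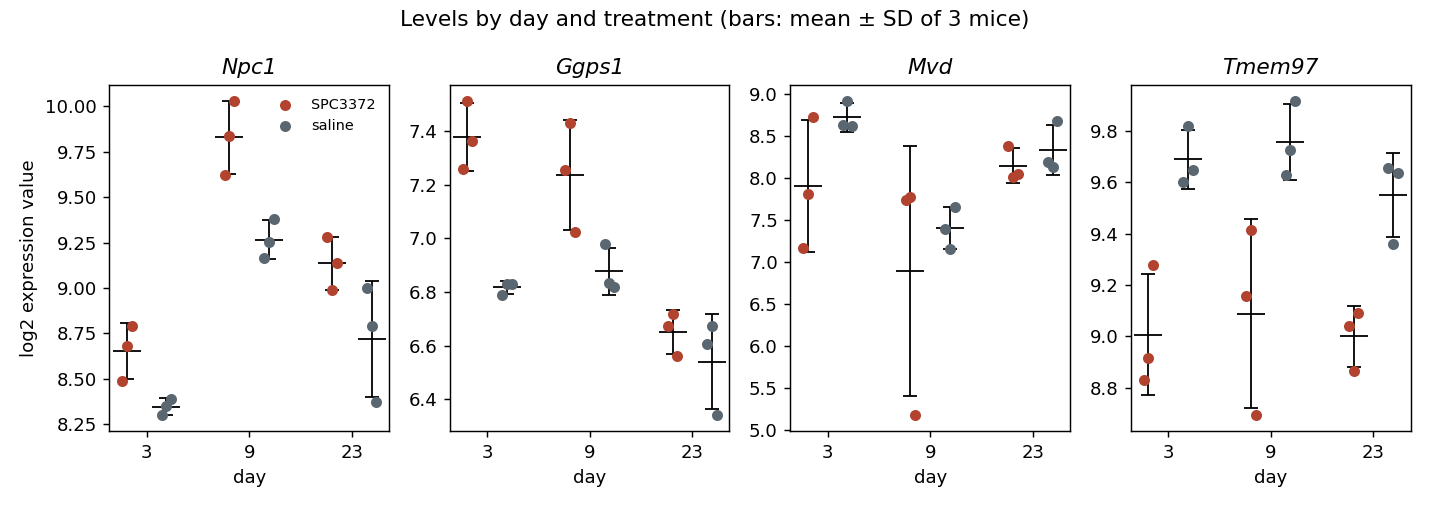
Points are log2 levels of single mice on days 3, 9 and 23, SPC3372 left of saline, and bars give the mean and SD of 3 mice, with a vertical scale of its own for each gene. Npc1 is higher in SPC3372 mice of day 9, Ggps1 in those of day 3, Mvd differs between the saline mice of days 9 and 3, and Tmem97 is lower in SPC3372 mice.

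On day 23, no gene of the list passed, and the enzymes were on both sides of the saline mice. By limma, 0 of 26 passed in either direction, while 0.385% of all genes did. At an unadjusted p under 0.05 there were 2 higher and 0 lower, while 13.9% of all genes were under it. The enzymes split into 9 positive and 9 negative differences with a median of 0.0113, against -0.0195 over all genes. Idi1, the isomerase that readies isopentenyl diphosphate, had levels of 11.77, 11.72 and 11.96 in SPC3372 mice, against 11.39, 11.31 and 11.32 in saline mice. Hmgcs1, which makes HMG-CoA, had 13.35, 13.22 and 13.38 in SPC3372 mice, against 13.17, 13.06 and 13.09 in saline mice. Pmvk had 9.36, 9.15 and 9.30 in SPC3372 mice, against 9.69, 9.40 and 10.004 in saline mice. The groups of these genes did not overlap, and their differences of 0.48, 0.21 and -0.43 did not pass (limma adjusted p = 0.648, 0.825 and 0.626). In all, 4 members lay wholly above and 2 wholly below, while 19.2% of all genes had groups without overlap.

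Insig1, the sterol sensor that is itself an SREBP2 target, read differently on the array sets. On p0621 its levels were 10.45, 10.14 and 10.02 in SPC3372 mice, against 9.78, 9.69 and 9.40 in saline mice, a difference of 0.58 ± 0.15 (limma adjusted p = 0.0767). RNA of the same 3 SPC3372 mice gave 8.90, 9.17 and 8.40 on p0617. The p0621 arrays thus read 1.55, 0.97 and 1.62 above the p0617 arrays in those mice. That mean gap of 1.38 ranked 1 of 18193 genes by size, and Insig1 was the only gene whose mean gap reached 1, the SD over genes being 0.143. No saline mouse of day 23 was hybridised in p0617, so the drug difference of Insig1 could be taken within p0621 only. Insig1 had a single probe set.

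Nearly all other members read alike on both sets. Of the 26, 23 stayed within 0.3 log2 units on each of the 3 mice. Ggps1 read lower on p0621 by -0.37, -0.22 and -0.39, and Insig2 differed by 0.31 in the third mouse. Only SPC3372 mice of day 23 were hybridised in both sets.

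**Figure D4:**
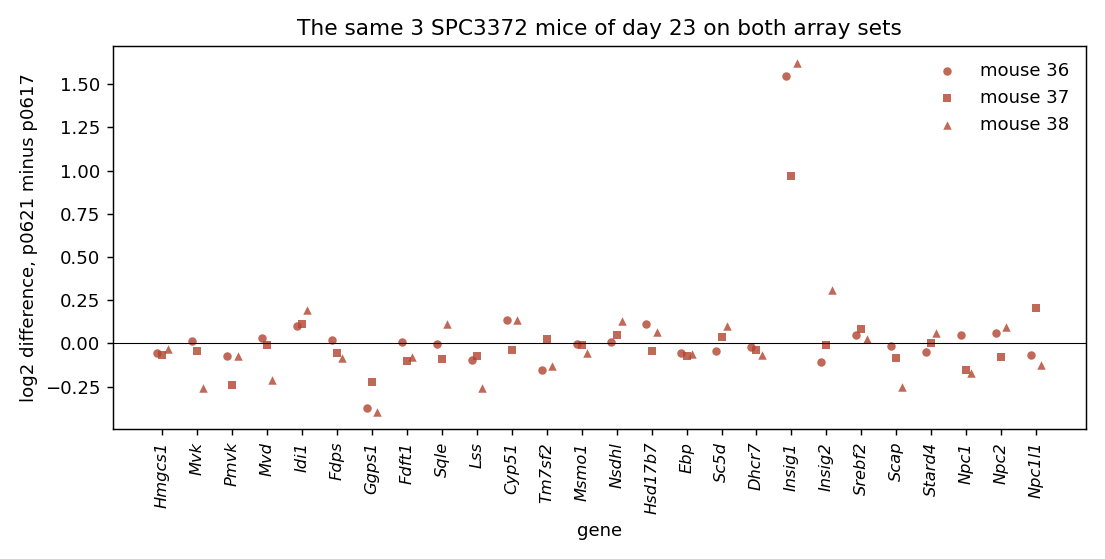
Each point is the log2 level on p0621 minus that on p0617 for a measured gene in mice 36, 37 and 38, the SPC3372 mice of day 23. Insig1 differs by 1.55, 0.97 and 1.62, and 23 of 26 genes stay within 0.3.

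The SPC3372 effect of Npc1 had the same sign on all days. On day 3 its levels were 8.49, 8.68 and 8.79 in SPC3372 mice, against 8.30, 8.35 and 8.39 in saline mice (difference 0.31, limma adjusted p = 0.249). On day 23 they were 9.28, 8.99 and 9.14 in SPC3372 mice, against 9.00, 8.79 and 8.37 in saline mice (difference 0.42, limma adjusted p = 0.176). The groups of day 3 were apart and those of day 23 overlapped. Npc2, its soluble partner in the lysosome, had 10.80, 10.73 and 10.76 in SPC3372 mice of day 3, against 10.50, 10.56 and 10.70 in saline mice. On day 9 Npc2 had 10.59, 10.71 and 10.41 in SPC3372 mice, against 10.94, 10.80 and 10.78 in saline mice. Its differences of 0.17 and -0.27 had opposite signs and neither passed (limma adjusted p = 0.285 and 0.0998). On day 23 Npc2 differed by -0.16, with SPC3372 mice below all saline mice, and did not pass (limma adjusted p = 0.427). Its other bright probe set, with a mean level of 10.5, differed by 0.07, -0.29 and -0.20 on days 3, 9 and 23 and did not pass.

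No change in effect between days passed for any of the 26 genes. For day 9 minus day 3, 1 member was under an unadjusted p of 0.05, and the lowest adjusted p by limma was 0.171, for Npc2, while 0.143% of all genes passed. For day 23 minus day 3, 2 members were under that unadjusted p, and the lowest adjusted p was 0.30, for Ggps1, while 0.302% of all genes passed. For day 23 minus day 9, 1 member was, and the lowest adjusted p was 0.389, for Insig1, while 0.00550% of all genes passed.

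Npc1 was also higher in saline mice of day 9 than in those of day 3. It had levels of 9.17, 9.25 and 9.38 in saline mice of day 9, against 8.30, 8.35 and 8.39 in saline mice of day 3, a rise of 0.92 ± 0.14 or 1.89-fold (limma adjusted p = 0.000623). It was the only member to pass, while 5.88% of all genes passed. These mice also serve as the controls of the drug comparisons, so the comparisons share arrays. None passed as lower. At an unadjusted p under 0.05 there were 2 members higher and 1 lower, while 17.98% of all genes were under it.

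Mvd had 7.40, 7.15 and 7.65 in saline mice of day 9, against 8.63, 8.92 and 8.62 in those of day 3. The groups were far apart, by -1.32 ± 0.50, and the difference did not pass in the shared fit (limma adjusted p = 0.149). In a fit of these 6 arrays alone it passed (limma adjusted p = 0.00263), as it did with SPC3372 replicate 3 of day 9 left out (limma adjusted p = 0.00769). The other probe set of Mvd differed by -0.96 and did not pass with every probe set tested (limma adjusted p = 0.271). Sqle had 9.40, 9.64 and 9.82 on day 9, against 10.27, 10.25 and 10.08 on day 3, a difference of -0.58 (limma adjusted p = 0.631). It passed in the fit of the 6 arrays alone (limma adjusted p = 0.0378) and did not with SPC3372 replicate 3 of day 9 left out (limma adjusted p = 0.113). Lss had 8.37, 9.02 and 8.88 on day 9, against 9.28, 9.29 and 9.25 on day 3, and Pmvk had 9.38, 9.71 and 9.26, against 9.91, 9.93 and 9.84. All 4 of these enzymes were lower in every saline mouse of day 9 than in any of day 3. Over the list, 4 members lay wholly above and 5 wholly below, while 21.8% of all genes had groups without overlap. The enzymes' median difference was -0.18, against 0.013 over all genes.

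Genes of the circadian clock moved with these days in the saline mice. Of 15 clock genes, 5 were higher and 5 lower on day 9 than on day 3, while 5.88% of all genes passed. Dbp, a clock output factor, had levels of 10.15, 9.76 and 10.96 in saline mice of day 9, against 4.59, 5.42 and 5.22 in those of day 3 (difference 5.21, limma adjusted p = 1.44e-06). Cry1, a repressor of the clock, had 5.90, 5.43 and 5.17 on day 9, against 8.13, 8.42 and 8.38 on day 3 (difference -2.81). The labels used here give no hour of death, and the part of the clock in the differences of Npc1 and Mvd was not tested. Between SPC3372 and saline mice, 1 clock gene passed on day 3, Nr1d2 (0.90), while 4.51% of all genes passed. On day 9, 2 passed, Arntl (-1.25) and Per2 (1.04), while 2.81% of all genes passed. No clock gene passed on day 23, where 2 were lower at an unadjusted p under 0.05, while 13.9% of all genes were under it. The call of Nr1d2 ended under 11 of 15 alternatives and that of Per2 under 10 of 14.

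Of 11 measured genes of SREBP processing and sterol sensing, 1 rose and 1 fell on day 3, while 4.51% of all genes passed. Erlin2, an endoplasmic reticulum protein of sterol-regulated degradation, had levels of 7.92, 7.75 and 7.75 in SPC3372 mice, against 7.20, 7.45 and 7.20 in saline mice (difference 0.52, limma adjusted p = 0.00583). Srebf1, which encodes the SREBP of fatty acid synthesis, had 11.28, 10.82 and 11.42 in SPC3372 mice, against 11.95, 12.07 and 11.96 in saline mice (difference -0.82, limma adjusted p = 0.00395). The groups of both genes were apart, and the Erlin2 call ended in a fit of the day's own arrays (limma adjusted p = 0.0573). None of the 11 passed on day 9, where 2 were higher at an unadjusted p under 0.05 and Erlin2 differed by 0.38 (limma adjusted p = 0.0513). None passed on day 23, where 1 was higher and 1 lower at that unadjusted p. Over all genes, 16.8% were under it on day 9 and 13.9% on day 23. In saline mice of day 9 against day 3, 3 of the 11 passed, all as lower, while 5.88% of all genes passed. Srebf1 also fell there, by 1.40 (limma adjusted p = 3.34e-05), with Syvn1 and Ubxn4. At an unadjusted p under 0.05, 2 of the 11 were higher and 3 lower, while 17.98% of all genes were under it.

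Tmem97, a sterol-responsive membrane protein that binds the Npc1 protein, was the SREBP target with calls on both early days. On day 3 it had levels of 8.83, 8.91 and 9.28 in SPC3372 mice, against 9.60, 9.82 and 9.65 in saline mice (difference -0.68, limma adjusted p = 0.0182). On day 9 it had 9.16, 9.42 and 8.69 in SPC3372 mice, against 9.63, 9.72 and 9.92 in saline mice (difference -0.67, limma adjusted p = 0.0308). On day 23 it had 9.04, 8.87 and 9.09 in SPC3372 mice, against 9.65, 9.36 and 9.64 in saline mice (difference -0.55, limma adjusted p = 0.111). The SPC3372 mice were below all saline mice on each day. The call of day 3 ended without SPC3372 replicate 1 or 2 or saline replicate 2 (limma adjusted p from 0.0640 to 0.0962). That of day 9 ended in a fit of its own arrays (limma adjusted p = 0.121) and without any array but SPC3372 replicate 2 (adjusted p from 0.0536 to 0.136).

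Tmem97 was the only one of the 12 measured genes of that list to pass in the drug comparisons. On day 9, 8 of the 12 were lower and 1 higher at an unadjusted p under 0.05, while 16.8% of all genes were under it. At that p, 3 were lower and 0 higher on day 3, while 18.3% of all genes were under it. On day 23, 1 was lower and 1 higher, while 13.9% of all genes were under it. The median difference of the 12 was -0.50 on day 3, -0.72 on day 9 and -0.09 on day 23. In saline mice of day 9 against day 3 it was -0.33. There 2 of the 12 passed as lower, Aacs and Elovl6, and 0 as higher, while 5.88% of all genes passed. Scd1, the stearoyl-CoA desaturase, had 10.99, 13.02 and 9.69 in SPC3372 mice of day 9, against 12.87, 13.84 and 13.18 in saline mice (difference -2.07, limma adjusted p = 0.0560). Acss2, an acetyl-CoA synthetase, had 9.92, 10.64 and 8.84 in SPC3372 mice of day 9, against 11.16, 11.49 and 11.17 in saline mice (difference -1.47, limma adjusted p = 0.0940). The groups of Acss2 did not overlap. Of 10 measured genes of the isoprenoid branch, which use farnesyl and geranylgeranyl diphosphate, none passed by limma on any day, and 2, 1 and 1 were under an unadjusted p of 0.05 on days 3, 9 and 23.

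Some other measures moved with the groups. Of 10 Kupffer cell and macrophage markers, 7 were higher in SPC3372 livers of day 3, while 4.51% of all genes passed. The summed log2 level of the 10 ran from 94.0 to 100.2 in SPC3372 mice, against 81.8 to 92.5 in saline mice. None of these markers passed on day 9 or day 23. At an unadjusted p under 0.05, 3 were higher and 1 lower on day 9, and 0 higher and 1 lower on day 23. Over all genes, 16.8% and 13.9% were under that p on these days. The other cell type markers that passed on day 3 were 1 of 6 for T and NK cells (Gzma), 1 of 5 for endothelium (Clec4g) and 1 of 4 for cholangiocytes (Epcam). On day 9 they were 1 of 5 for endothelium (Clec4g) and 2 of 5 for stellate cells (Dcn and Reln), while 2.81% of all genes passed. All of these were higher in SPC3372 livers. At an unadjusted p under 0.05, 1 stellate cell marker was lower and 0 higher on day 3. On day 9, 1 endothelium marker was lower and 2 higher, and 1 B cell marker was lower and 0 higher. Of 7 measured hepatocyte markers, none passed between SPC3372 and saline on any day, with 1 under an unadjusted p of 0.05, on day 9. Their summed level on day 3 ran from 99.7 to 99.8 in SPC3372 mice, against 99.5 to 100.04 in saline mice. The 3′ minus 5′ β-actin difference was 1.01 to 1.05 in SPC3372 mice of day 3, against 0.756 to 0.846 in saline mice, and 1.12 to 1.16 in SPC3372 mice of day 9, against 0.861 to 0.980 in saline mice. On day 23 the ranges overlapped, at 1.04 to 1.33 in SPC3372 mice and 1.11 to 1.18 in saline mice. The part of these measures in the differences of the cholesterol genes was not tested.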

How the data were processed

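Liver RNA of 18 mice was hybridised on 21 arrays. The deposited log2 levels came from RMA, run by the authors, per the submitters' processing notes. Its version, and whether both array sets were normalized in a single run, is not stated in these notes. Of 45101 probe sets, 64 were controls, 34945 had 1 symbol in the platform annotation, 932 several and 9160 none. Each gene took its probe set of highest mean over 18 arrays, 1 per mouse, with p0621 for day 23. Group means were fitted with limma 3.58.1 in R 4.3.3, with 12 residual and 4.85 prior degrees of freedom, two-sided, and checked on simulated data. The number of arrays limits the precision. The design text calls the mice of a group biological replicates.

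The members and all gene lists were chosen with earlier results of these data known. Per comparison, arrays are given for genes past an adjusted p of 0.05, for the 4 largest differences, and for groups without overlap among the 6 largest. Sqle, Ebp and Npc2 were named after their values were seen. Of the pathway lists, genes past the threshold and examples among the 2 largest differences are named. Alternatives were other fits, normalizations, filters and probe set rules, each array left out in turn, and, added after the data were seen, SPC3372 replicate 3 of day 9 left out of every fit. Python 3.11.15 and matplotlib 3.10.9 drew the figures.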

Additional observations from a re-analysis of the deposited data

How the results depend on the processing

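The enzymes' median difference kept its sign under every alternative on day 3 (-0.711 to -0.260 with an array left out) and between saline days (-0.249 to -0.124). On day 9 it ran from -0.609 to 0.127 and on day 23 from -0.046 to 0.0614 with an array left out. The Ggps1 call of day 3 ended with the mean of its probe sets (0 members higher). The Npc1 call of day 9 ended in the fit of its own arrays and with the replicate block (0 members higher, difference 0.56, limma adjusted p = 0.0597), and with an array left out the count ran from 0 to 1. Each array's deviation from its group mean was taken over all genes. Between mice of the same replicate number in the compared groups, these deviations correlated at -0.153 to 0.0763, so replicate numbers showed no pairing. Beyond Npc1, the replicate block changed no member's call. Recurring mouse numbers were compared in the saline mice of days 3 and 9 only. On day 3 the count of lower members ran from 0 to 1 with an array left out. On day 23 it was 1 with the p0617 arrays, where Insig1 was -0.80, and Insig1 was -0.11 with all 21 arrays. Both set p0617 arrays against saline mice of p0621 and so carry the gap between the array sets. With an array left out, Nsdhl on day 9 ran from -1.14 to 0.0609 and Sqle from -1.08 to 0.38. In saline mice of day 9 against day 3, lower members numbered 2 in the fit of their own arrays (Mvd and Sqle), 1 with every probe set tested (Sc5d) and 0 to 1 with an array left out. Npc1 passed there under every alternative (adjusted p = 0.000174 to 0.00534). Over all genes, calls ran from 253 to 981 on day 3, 132 to 629 on day 9, 0 to 259 on day 23 and 608 to 1307 between saline days.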
